A study of Mus musculus with 35 samples.

Results

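Mouse leukemia cells driven by the fusion gene NUP98-JARID1A were compared 3 days after the fusion had been switched off with the same kind of cells in which it was left on. The comparison rests on 7 of the 33 RNA libraries of the series, 3 from mice given doxycycline for 3 days and 4 from untreated mice, chosen by their labels alone. The whole series holds 35 samples and 3 doxycycline-regulated fusions, NUP98-JARID1A, NUP98-DDX10 and NUP98-NSD1, each with libraries after 3 and 5 days of the drug and without it, beside 3 control libraries and 2 chromatin samples that were not analysed here. All mice were C57BL/6 recipients of transplanted cells. The controls were untreated, and their genotype label names NUP98-JARID1A and NUP98-NSD1 with a DDX fusion whose number differs from library to library, yet the NUP98-JARID1A feature had 2.52, 72.0 and 18.2 normalized counts in them. The day 3 group carried regulatable NUP98-JARID1A and got doxycycline at 4 mg/ml for 3 days. The untreated group carried the same fusion and got no doxycycline, so the drug itself and the loss of the fusion cannot be told apart within this comparison. Of the 4 untreated libraries 1 is titled for day 3 and 3 are titled for day 5. RNA came from bone marrow cells sorted for GFP and CD45.2, by stranded poly-A libraries. The labels do not say how many animals or primary leukemias stand behind the libraries, so the p-values rest on the spread among these libraries alone, which may be partly technical.

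NUP98 is a nucleoporin whose first part, rich in FG repeats, drives transcription when it is fused to a chromatin or DNA binding partner. JARID1A, also named KDM5A, is a histone H3 lysine 4 demethylase, and the leukemia fusion keeps its last PHD finger, a domain that reads trimethylated lysine 4 of histone H3. NUP98 fusions are known for keeping HOXA genes and their partner MEIS1 active, as in stem and progenitor cells, and for blocking myeloid maturation. The series title names Cdk6, the kinase that starts the G1 to S step with the D cyclins, as a direct target of these fusions.

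The 7 libraries held 14854613 to 19764845 reads in genes, and all 33 held 12043519 to 28912315. Values are the authors' normalized counts, which scale libraries to each other but not for gene length, so levels are compared between libraries and not between genes. In a principal component analysis of the 10 NUP98-JARID1A libraries the first component took 55% of the variance. On it the day 3 libraries scored -12.2 to -0.61, the untreated library titled for day 3 (untreated library 1) 63.4 and the other 3 untreated libraries 38.3 to 46.5. Untreated library 1 thus had the score farthest from the treated libraries. It was also the lowest untreated library in many of the monocyte genes described below.

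The fusion transcript fell after 3 days of doxycycline. The NUP98-JARID1A feature had 99.5, 90.0 and 99.8 normalized counts in the day 3 libraries, against 3489, 3273, 3042 and 3096 in the untreated libraries, a log2 change of -5.05 ± 0.49 (standard error; adjusted p = 4.86e-08). The groups lay far apart, and the treated libraries kept a small remainder of similar size. The eGFP feature had 400.4, 294 and 319 normalized counts at day 3, against 9450.4, 12330.1, 12320.2 and 12506 in untreated libraries (log2 -5.11 ± 0.54, adjusted p = 1.94e-07). The cells had been sorted for GFP, and the eGFP transcript was low in all 3 treated libraries. Luciferase, another construct feature, had 6072, 5036 and 5070.2 at day 3, against 2627, 3845, 4025 and 4149 in untreated libraries, which did not pass the test (log2 0.58 ± 0.68, adjusted p = 0.648; 0.0112 in the fit without the control libraries, which differed among themselves in this feature with 473, 9.14 and 9.09). The mouse genes Nup98 (-0.06, adjusted p = 0.804) and Kdm5a (-0.26, adjusted p = 0.192) did not pass it either.

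Cdk6 fell. It lies at chr5:3341004-3531008 (GRCm38) and had 10617, 7965 and 8946 normalized counts at day 3, against 16734, 16737, 16049.6 and 16562 in untreated libraries. The untreated libraries were nearly equal, and every treated library lay below them. The log2 change was -0.86 ± 0.24 with an adjusted p of 0.0127. The call was lost without day 3 library 2, the lowest of the 3 treated libraries (adjusted p = 0.0723), and held in the 6 other fits that left out 1 library.

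**Figure D1:**
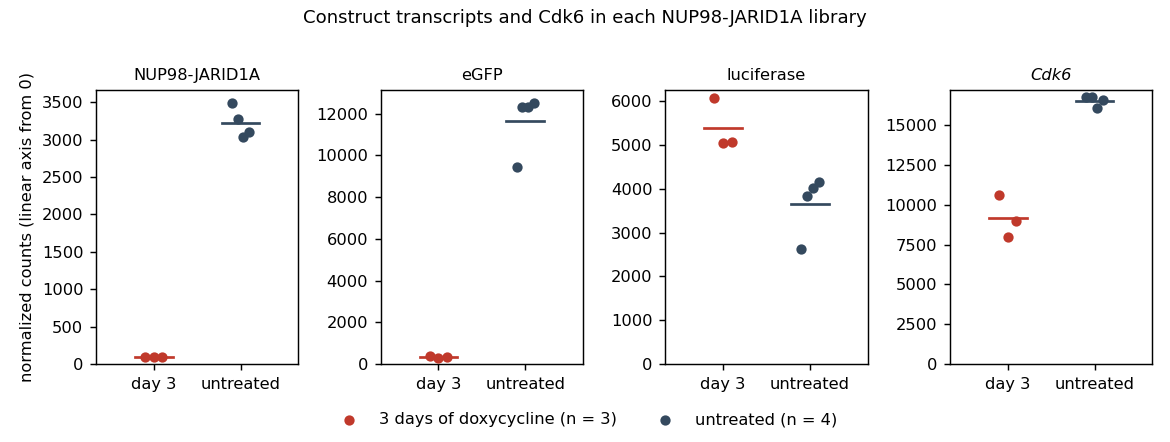
Normalized counts of the NUP98-JARID1A, eGFP and luciferase features and of Cdk6 in each library (points), with the group mean as a line, on linear axes from 0; day 3 of doxycycline stands left of untreated. The fusion and eGFP were near 0 in all 3 treated libraries, while Cdk6 lay between 7965 and 10617 at day 3 and between 16049.6 and 16737 in untreated libraries.

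Across the table, 12687 features that reached 10 normalized counts in 3 or more of the 33 libraries were tested. Of these 1028 were higher (8.1%) and 967 lower (7.62%) after 3 days at an adjusted p under 0.05, 15.7% in all. Past the test and by at least 2-fold, 342 were higher (2.7%) and 381 lower (3%). The 3 treated and 4 untreated values did not overlap for 26.9% of the features. The median change of all features was -0.02 on the log2 scale. These shares are the background against which the members of each gene list below are read. Members that did not reach the count minimum were not tested: 6 of 27 Hox, Meis and Pbx genes, 3 of 34 progenitor genes, 3 of 35 ATF4 genes, 1 of 16 dendritic cell genes, 5 of 19 erythroid genes (1 of them not matched in the table), 2 of 18 mast cell, basophil and eosinophil genes, 4 of 12 megakaryocyte genes and 7 of 15 endothelial and stromal genes. The p53, interferon, glycolysis, cholesterol and both ribosomal protein lists each had 1 such member. Some tested members, such as Hoxb6, reached the minimum only in other libraries of the 33 and were at 0 in all 7. They still enter the counts and medians. In bulk libraries fewer cells of a type and less RNA per cell cannot be told apart.

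Hoxa genes fell after 3 days. Of 21 Hox, Meis and Pbx genes tested 9 fell and 1 rose, with a median log2 change of -0.60. The largest falls were in Hoxa2 to Hoxa6. Hoxa2 had 9.35, 2.78 and 4.84 normalized counts at day 3, against 36.4, 54.2, 64.7 and 58.0 in untreated libraries (-3.12 ± 0.41, adjusted p = 4.63e-06). Hoxa3 had 74.8, 52.9 and 63.0 at day 3, against 408, 433, 671 and 584 in untreated libraries (-3.01 ± 0.52, adjusted p = 0.00015). Hoxa4, a low gene, had 4.25, 2.78 and 1.94 at day 3, against 34.4, 27.1, 20.9 and 24.2 in untreated libraries (-2.81 ± 0.42). Each of these treated libraries lay below every untreated one. Hoxa5 had 126, 102 and 111 at day 3, against 809, 638, 805 and 809 in untreated libraries (-2.74 ± 0.64, adjusted p = 0.00353). Hoxa6 had 17.0, 8.35 and 8.72 at day 3, against 77.8, 84.9, 99.1 and 113 in untreated libraries (-2.99 ± 0.37, adjusted p = 2.37e-06). Further along the cluster the log2 changes were smaller. Hoxa7 had 353, 245 and 218 at day 3, against 543, 660.1, 744 and 693 in untreated libraries (-1.30 ± 0.22, adjusted p = 0.000171). Hoxa10 had 525, 368 and 349.7 at day 3, against 745, 755, 932 and 875 in untreated libraries (-1.01 ± 0.19, adjusted p = 0.000489).

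Hoxa9, the Hoxa gene best known for driving leukemia, had 774, 496 and 471 normalized counts at day 3, against 1375, 1348, 1710.2 and 1774 in untreated libraries. The groups did not overlap, yet the change of -1.44 ± 0.57 did not pass the test (adjusted p = 0.0918). The spread used for the test is shared by all 33 libraries, and edgeR on the recovered reads gave Hoxa9 an adjusted p of 0.000168. Meis1, the homeobox partner of Hoxa9, had 166, 145 and 142 at day 3, against 525, 469, 586 and 502 in untreated libraries (-1.78 ± 0.45, adjusted p = 0.00627). Pbx3, another partner, had 1100.0, 991 and 1324 at day 3, against 1833, 1913, 1687 and 1471 in untreated libraries (-0.60 ± 0.17, adjusted p = 0.0124), a call that was lost without day 3 library 1 or 2 (adjusted p up to 0.0846).

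The annotated spans of Hoxa3, Hoxa5 and Hoxa6 overlap. How the authors assigned reads from shared stretches is not given in the sources used here, so some of these reads may not be told apart. The 8 Hoxa genes described lie on GRCm38 chromosome 6 from Hoxa2 at chr6:52162417-52164831 to Hoxa10 at chr6:52231197-52240854. With only untreated library 1 as the comparison 4 of the list fell and none rose at the threshold.

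**Figure D2:**
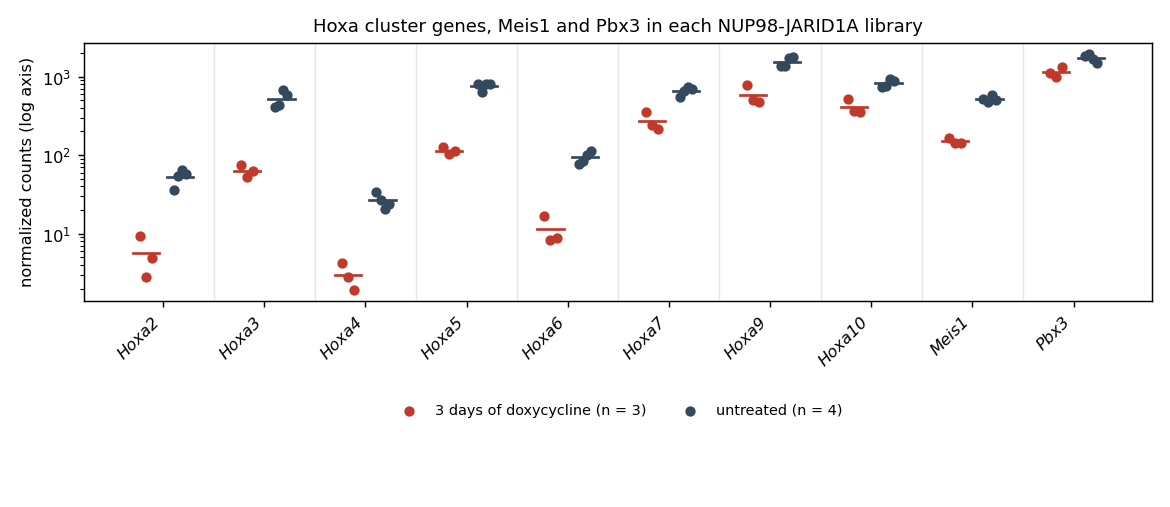
Normalized counts (log axis) of the Hoxa genes in the order of the cluster, with Meis1 and Pbx3, in each NUP98-JARID1A library; points are libraries, lines are group means, and the day 3 group stands left of the untreated group. Every gene shown had all 3 treated libraries below all 4 untreated ones.

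Genes of hematopoietic progenitors and leukemia stem cells fell. Of 31 tested 13 fell and none rose, with a median of -0.74; in the fits that left out 1 library 9 to 13 fell. The 31 include Mycn, Zfp521, Cd200, Cd96 and Eya1, which were at 0 in both groups and could not fall. Sox4, a transcription factor of early progenitors, had 24.7, 19.5 and 28.1 normalized counts at day 3, against 285, 228, 389 and 641 in untreated libraries (-3.85 ± 0.45, adjusted p = 7.83e-07). Angpt1, the gene of the TIE2 ligand angiopoietin, had 51.9, 51.0 and 52.3 at day 3, against 707, 442, 366 and 377 in untreated libraries (-3.12 ± 0.55, adjusted p = 0.000225). Mn1, a transcriptional cofactor that can itself cause leukemia in mice, had 139, 82.6 and 89.1 at day 3, against 841, 761, 1119.6 and 1405 in untreated libraries (-3.30 ± 0.56, adjusted p = 0.000119). For these 3 genes the highest treated library was several times below the lowest untreated one. Adgrg1, the adhesion receptor also named GPR56, had 1181, 754 and 1050.1 at day 3, against 3980.1, 3401, 5391 and 4430.1 in untreated libraries (-2.12 ± 0.31, adjusted p = 1.8e-05). The homeobox gene Nkx2-3 had 264, 219.9 and 213 at day 3, against 999.8, 903, 1189.5 and 1068 in untreated libraries (-2.16 ± 0.32, adjusted p = 2.3e-05).

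The receptor tyrosine kinases of progenitors fell less. Flt3 had 869.7, 501 and 716 normalized counts at day 3, against 1713, 1760.0, 2185 and 2897 in untreated libraries (-1.62 ± 0.39, adjusted p = 0.00487). Kit had 804, 576 and 833 at day 3, against 2616, 1700.4, 2218 and 1740.5 in untreated libraries (-1.48 ± 0.38, adjusted p = 0.00739; 0.0505 without day 3 library 2). Satb1, a chromatin organiser, had 1758, 1405 and 1762 at day 3, against 3051, 3086, 3016 and 3584 in untreated libraries (-0.96 ± 0.13, adjusted p = 8.72e-06). Cd34, the surface marker that names many progenitors, had 3923, 3149 and 4642 at day 3, against 13034, 9016, 11267 and 10197 in untreated libraries; the groups did not overlap, and the change of -1.48 ± 0.76 did not pass the test (adjusted p = 0.205). Myb, the progenitor transcription factor, fell by 1.09 on the log2 scale (adjusted p = 0.023), and Lmo2 fell by 0.47 (adjusted p = 0.027).

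The 15 largest falls among well expressed genes, chosen so that the groups did not overlap, also held genes with other roles. Foxf1, a forkhead factor of the splanchnic mesoderm, had 319.6, 242 and 224 normalized counts at day 3, against 2569.8, 2157, 2896 and 2555 in untreated libraries (-3.28 ± 0.40, adjusted p = 1.63e-06). Its neighbour Fendrr, a noncoding RNA gene, lay outside the 15, with a low mean of 40.1 normalized counts over the 7 libraries. It changed by -3.34 ± 0.28 (adjusted p = 6.5e-09). Tsc22d1, a leucine zipper protein, had 199, 161 and 212 at day 3, against 1308, 954, 1247 and 1373 in untreated libraries (-2.67 ± 0.22, adjusted p = 2.99e-09). Bcl11a, a zinc finger repressor of lymphoid and early progenitors, had 559, 469 and 458 at day 3, against 2428, 1793, 2445 and 2730.2 in untreated libraries (-2.23 ± 0.30, adjusted p = 6.97e-06). Bahcc1, a large chromatin protein, had 1119, 833 and 708 at day 3, against 2158, 2836, 4446 and 4796 in untreated libraries (-1.96 ± 0.36, adjusted p = 0.00034). Slc18a1, a vesicular monoamine transporter (-2.34), Pdgfrb, a receptor for PDGF (-2.29), Tns1, a focal adhesion protein (-2.12), Ephb2, an ephrin receptor (adjusted p = 0.00137), and Il12a, a subunit of interleukin 12 (-1.97), completed this group with Cd28 (-2.40) and Klrb1c (-4.18), which are taken up with the T and NK cell genes. All of them kept their calls in each of the 7 fits that left out 1 library.

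Monocyte and macrophage genes rose. Of 37 tested 21 rose and none fell, with a median of 1.05. The count was 13 without day 3 library 1 and 13 without untreated library 1, and it stayed between 13 and 23 over the 7 fits. Vcan, the proteoglycan versican that classical monocytes secrete, had 1074, 1385 and 839 normalized counts at day 3, against 42.5, 169, 41.7 and 116 in untreated libraries (3.79 ± 0.61, adjusted p = 7.5e-05), the largest rise of the named genes. S100a4, a calcium binding protein, had 628, 944 and 836 at day 3, against 70.8, 361, 178 and 195 in untreated libraries (2.19 ± 0.30, adjusted p = 9.96e-06). S100a6, its relative, had 4912, 6128 and 4252 at day 3, against 525, 1869, 1207 and 1420.3 in untreated libraries (2.14 ± 0.33, adjusted p = 4.31e-05). In each of the 3 the treated libraries lay above all untreated ones, and untreated library 1 was the lowest for S100a4 and S100a6. Tgfbi, a matrix protein made by monocytes, had 19232, 16881 and 15735 at day 3, against 3034, 5557, 5257 and 5431 in untreated libraries (1.88 ± 0.20, adjusted p = 2.64e-07). Trem2, a lipid receptor of macrophages, had 1282, 879 and 778 at day 3, against 68.7, 515, 274 and 371 in untreated libraries (1.96 ± 0.39, adjusted p = 0.000712). Clec4a1, a C-type lectin of monocytes, had 2151, 2371 and 1924 at day 3, against 469, 1001, 715 and 891 in untreated libraries (1.53 ± 0.17, adjusted p = 5.67e-07).

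Further members of the list were named as examples. Csf1r, the receptor for the macrophage growth factor M-CSF, had 19067, 16899 and 15195 normalized counts at day 3, against 7018, 13276, 10980.4 and 13668 in untreated libraries (0.64 ± 0.17, adjusted p = 0.0115). Its groups did not overlap, and its call was lost without day 3 library 1 or untreated library 1 (adjusted p up to 0.0736). The complement genes C1qa, C1qb and C1qc, made by tissue macrophages, passed the test with log2 changes of 2.38, 2.08 and 2.15 (adjusted p = 0.034, 0.031 and 0.025). Apoe, the lipid carrier, rose by 1.74 (adjusted p = 6.8e-05), and Lgals3, a lectin of macrophages, also passed (adjusted p = 6.5e-05).

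The transcription factors of the monocyte lineage moved with these genes. Of 28 myeloid lineage factors 9 rose and none fell, with a median of 0.53; without day 3 library 1 the count was 5, and with the spread taken from the 7 libraries alone 3 rose and 2 fell. Klf4, a factor of monocyte differentiation, had 1099, 1239 and 1093 normalized counts at day 3, against 46.5, 361, 206 and 364 in untreated libraries (2.59 ± 0.40, adjusted p = 3.47e-05). Maf had 288, 302 and 229 at day 3, against 8.09, 60.5, 52.2 and 94.8 in untreated libraries (2.73 ± 0.49, adjusted p = 0.000262). All treated values lay above the highest untreated one, and untreated library 1 was the lowest of the 7 in both genes. Irf5, a factor of inflammatory macrophages, had 6619, 5591 and 5124 at day 3, against 1371, 2515, 2803 and 3210.1 in untreated libraries (1.28 ± 0.23, adjusted p = 0.000296). Cebpa and Cebpb, the C/EBP factors of myeloid maturation, rose by 0.99 (adjusted p = 0.011) and 1.33 (adjusted p = 0.0036). Irf8 rose by 0.49 (adjusted p = 0.021) and Id2 by 0.97 (adjusted p = 0.0015).

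**Figure D3:**
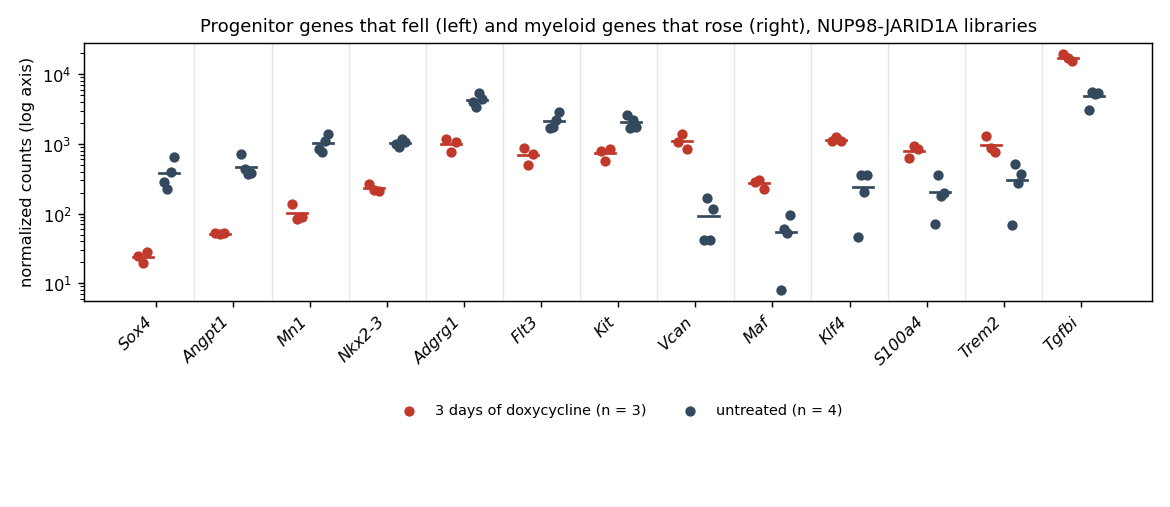
Normalized counts (log axis) of 7 progenitor genes that fell and 6 myeloid genes that rose, in each NUP98-JARID1A library; points are libraries, lines are group means, and day 3 stands left of untreated. The groups do not overlap for any of the 13 genes, and the lowest untreated point of Klf4, Maf, S100a4, Trem2 and Tgfbi is the library titled for day 3.

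Lysosome genes, many of them highly active in macrophages, rose in part: 8 of 32 rose and none fell, with a median of 0.23. Ctsh, a cathepsin, had 4301, 4225 and 3812 normalized counts at day 3, against 1954, 2342, 2261 and 2062 in untreated libraries (0.93 ± 0.10, adjusted p = 1.87e-07). Ctsb, another cathepsin, had 11689, 10939 and 10007 at day 3, against 6760.2, 7681, 7158 and 6919 in untreated libraries (0.61 ± 0.10, adjusted p = 4.96e-05). Psap, the saposin precursor, had 87062, 84288 and 74226 at day 3, against 26679, 52736, 41546 and 53187 in untreated libraries (0.96 ± 0.20, adjusted p = 0.00116). With the spread taken from the 7 libraries alone the count was 3.

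Rises outside the lists held cytoskeletal and secreted proteins. Crip1, a small LIM protein, had 1682, 1734 and 1483 normalized counts at day 3, against 245, 673, 409 and 556 in untreated libraries (1.89 ± 0.19, adjusted p = 8.79e-08). Tubb6, a tubulin, had 1279, 990.2 and 1197 at day 3, against 175, 291, 342 and 427 in untreated libraries (1.96 ± 0.23, adjusted p = 6.41e-07). Spp1, which encodes osteopontin, had 1514, 2104 and 1536 at day 3, against 461, 596, 426 and 452 in untreated libraries (1.82 ± 0.33, adjusted p = 0.000293). Pla2g7, the plasma platelet activating factor hydrolase (2.16), Pid1 (1.95), Tarm1, a receptor of myeloid cells (1.92), Ptms, or parathymosin (1.87), and Parvb, a focal adhesion protein (1.86), completed the 15 largest rises. None of these lost its call when 1 library was left out.

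Few granulocyte genes passed the test. Of 40 secondary granule and mature neutrophil genes none rose at the threshold and 1 fell, although 33 of the 40 had a positive log2 change (5892 of 12687 over all features) and the median was 0.39; at an unadjusted p under 0.05, 4 were higher and 1 lower, and edgeR and DESeq2 each called 1 of them higher. The count that rose was 5 without the controls or with the spread taken from the 7 or the 10 NUP98-JARID1A libraries alone, and 15 with array weights. Lyz2, lysozyme, had 119138, 159610.0 and 130443 normalized counts at day 3, against 97528, 98669, 89810.2 and 74106 in untreated libraries, without overlap of the groups and without passing the test (0.60 ± 0.27, adjusted p = 0.145). The gene that fell was Clec7a, the receptor dectin-1, with 2851, 2908 and 3221 at day 3, against 5630.0, 7807, 5336 and 5707 in untreated libraries (-1.02 ± 0.28, adjusted p = 0.0113). Of 12 primary granule genes 1 rose, Ctsc, the cathepsin that activates granule proteases, with 8669, 10944 and 9499 at day 3, against 3033, 4356, 2566 and 3759 in untreated libraries (1.52 ± 0.17, adjusted p = 3.35e-07). Another fell, Plac8, with 33185, 32452 and 37326 at day 3, against 57912, 52331, 58333 and 54703 in untreated libraries (-0.70 ± 0.20, adjusted p = 0.0156; up to 0.0648 without day 3 library 1 or 2). Of 6 NADPH oxidase genes 1 rose, Ncf4 (0.51 ± 0.17, adjusted p = 0.0394), and its call was lost in 6 of the 7 fits that left out 1 library, all but the one without untreated library 3 (adjusted p up to 0.129).

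Dendritic cell genes fell in part: 6 of 15 fell and none rose, with a median of -0.75. Tcf4, the E protein that plasmacytoid dendritic cells depend on, had 1503, 983 and 1110.1 normalized counts at day 3, against 2233, 2448, 2588 and 3197 in untreated libraries (-1.14 ± 0.14, adjusted p = 1.71e-06). Flt3 is a member of this list too. Siglech, a surface marker of the same cells, fell by 1.85 (adjusted p = 0.022) at low counts, and Ccr7, a homing receptor, by 2.26 (adjusted p = 0.014). Without untreated library 4 the count was 3. In the MHC class II list of 10 genes 8 had a positive log2 change (5892 of 12687 over all features), with a median of 0.36. None rose at the threshold, and 1 gene fell. It was H2-Ob, a subunit of H2-O that inhibits peptide loading, with 40.8, 25.1 and 26.2 at day 3, against 154, 138, 152 and 145 in untreated libraries (-2.26 ± 0.41, adjusted p = 0.0003).

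Among 21 genes of G1 control 4 rose and 2 fell, with a median of 0.16. Besides Cdk6 the gene that fell was Cdkn2c, the CDK4 and CDK6 inhibitor p18, with 859, 793 and 675 normalized counts at day 3, against 1457, 1366, 1538 and 1354 in untreated libraries (-0.89 ± 0.12, adjusted p = 4.68e-06). The inhibitor Cdkn1a, or p21, rose, with 2839, 2018 and 2167 at day 3, against 707, 889, 970.4 and 1239 in untreated libraries (1.31 ± 0.18, adjusted p = 7.46e-06). Cdkn2d, or p19, had 796, 757 and 726 at day 3, against 470.1, 439, 552 and 443 in untreated libraries (0.68 ± 0.11, adjusted p = 0.00012). The other 2 that rose were the E2F factor E2f2, by 0.66 (adjusted p = 0.017), and cyclin D1, Ccnd1, with 4234, 3513 and 3719.8 at day 3, against 1583, 2266, 2033 and 2536 in untreated libraries (0.88 ± 0.24, adjusted p = 0.0114; 0.0611 without day 3 library 1). Inhibitors thus moved in both directions. Without day 3 library 1 the number that rose was 2.

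The p53 target and apoptosis list had 6 of 24 genes higher and none lower (median 0.22; 3 higher without day 3 library 1). Cdkn1a and Sesn2 are members, and the call of Sesn2 was lost without day 3 library 1 (adjusted p = 0.0626). Zmat3, an RNA binding p53 target, had 403, 315 and 381 normalized counts at day 3, against 130.4, 178, 130.4 and 184 in untreated libraries (1.24 ± 0.22, adjusted p = 0.000274). Bcl2l11, the cell death protein BIM, had 1135, 1083 and 926 at day 3, against 541, 725, 600.0 and 672 in untreated libraries (0.73 ± 0.12, adjusted p = 7.5e-05). Bax, a pore forming death protein, rose by 0.53 (adjusted p = 0.01), and Mcl1, which protects against it, by 0.42 (adjusted p = 0.032).

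Genes of division had small changes at day 3. Of 34 mitosis genes 5 rose and none fell (median 0.12); without day 3 library 3 none passed, and 3 passed without day 3 library 1 or 2 or untreated library 1. Among 44 DNA replication genes 2 rose and 6 fell (median -0.12), the fork proteins Rfc2 (-0.35 ± 0.08, adjusted p = 0.00211), Lig1 (-0.36 ± 0.09, adjusted p = 0.00521) and Pole (-0.43 ± 0.11, adjusted p = 0.00587) among those that fell. The count that fell was 3 without day 3 library 2, untreated library 1 or untreated library 2; the count that rose was 0 without day 3 library 3 and 1 without day 3 library 1 or untreated library 4. Of 38 ribosome biogenesis genes 2 fell and none rose (median -0.15), and none passed without day 3 library 1, day 3 library 2 or untreated library 1 and 1 without day 3 library 3 or untreated library 3. Myc, which drives such genes, had 4355, 3923 and 4539 normalized counts at day 3, against 3429, 3315, 3909 and 4388 in untreated libraries, with overlap (0.19 ± 0.14, adjusted p = 0.398). None of 49 cytosolic ribosomal protein genes passed the limma test; 1 was lower at an unadjusted p under 0.05 and edgeR called none. None of 48 mitochondrial ribosomal protein genes passed it either; 3 were higher and 2 lower at an unadjusted p under 0.05, and edgeR called 2 higher. Of 50 nuclear genes of the respiratory chain 5 rose, led by Atp5b, an ATP synthase subunit (0.42 ± 0.08, adjusted p = 0.000493), and 1 did without day 3 library 1 and 3 without untreated library 2. Of 21 glycolysis genes 1 rose, Pfkp, a phosphofructokinase (0.69 ± 0.10, adjusted p = 1.33e-05), and of 23 cholesterol synthesis genes 2 rose, Mvd and Fdps, with counts from 0 (without day 3 library 1 or 2 or untreated library 2) through 1 (without untreated library 1, 3 or 4) to 4 (without day 3 library 3). All 23 had a positive log2 change at day 3 (median 0.23), and 12 rose with array weights.

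Genes of the ATF4 stress response rose. ATF4 is the transcription factor whose translation increases when eIF2 is phosphorylated under amino acid shortage, heme shortage or stress of the endoplasmic reticulum, and it binds DNA with C/EBP partners. Of 32 targets tested 18 rose and none fell, with a median of 0.52. The count was 9 without day 3 library 1, 10 without day 3 library 3 and 11 without untreated library 2. Mthfd2, a mitochondrial folate enzyme, had 1104, 973 and 1741 normalized counts at day 3, against 484, 491, 445 and 440.2 in untreated libraries (1.41 ± 0.13, adjusted p = 1.95e-08). The amino acid transporter Slc38a2 had 11748, 8906 and 12718 at day 3, against 5200.3, 5214, 5004 and 5375 in untreated libraries (1.08 ± 0.14, adjusted p = 3.02e-06). Trib3, a pseudokinase that is low in untreated cells, had 34.9, 21.3 and 63.0 at day 3, against 3.03, 3.61, 4.17 and 3.87 in untreated libraries (3.00 ± 0.42, adjusted p = 1.27e-05). No library overlapped for these 3 genes, and day 3 library 3 was the highest in each. Nupr1, a stress protein, had 105, 103 and 115 at day 3, against 27.3, 40.6, 27.1 and 40.6 in untreated libraries (1.67 ± 0.29, adjusted p = 0.000202). Gars, the glycyl-tRNA synthetase, had 2909, 2718 and 3172 at day 3, against 1928, 2156, 1908 and 1950.4 in untreated libraries (0.56 ± 0.08, adjusted p = 2.29e-05). Pycr1, an enzyme of proline synthesis, had 87.6, 97.4 and 105 at day 3, against 34.4, 39.7, 55.3 and 26.1 in untreated libraries (1.34 ± 0.32, adjusted p = 0.00435). Asns, asparagine synthetase, had 434, 445 and 797 at day 3, against 258, 253, 200.3 and 338 in untreated libraries (1.05 ± 0.36, adjusted p = 0.0424), and its call held, among the 7 fits, only in the one without untreated library 4 (adjusted p up to 0.216). Ddit3, which encodes CHOP, did not pass the test (0.40 ± 0.17, adjusted p = 0.115), but did without day 3 library 2 (adjusted p = 0.0234).

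The letters by which ATF4 and a C/EBP partner are known to bind together, TGATGNAA or TTNCATCA on the other strand, were searched in the 300 bases around each gene start (250 before it and 50 after it) in RefSeq's GRCm38.p6 promoters. They stood in 3.97% of all 32851 windows and in 285 of the 10158 tested genes with a window (2.81%). Of the 18 list genes that rose 16 had a window and 5 of these held the element, and of the 14 that did not pass the test 12 had a window and 5 held it. The counts give no higher share among the members that rose, and a match is a match of letters and not a bound site. The windows of 4 genes that rose are printed because they carry the element beside the changes above; they read 5′ to 3′ on the gene's own strand, with the element in capitals. Trib3 is at chr2:152344011-152344310 (minus strand), Gars at chr6:55037751-55038050 (plus strand), Nupr1 at chr7:126625421-126625720 (minus strand) and Pycr1 at chr11:120643699-120643998 (minus strand).
Trib3: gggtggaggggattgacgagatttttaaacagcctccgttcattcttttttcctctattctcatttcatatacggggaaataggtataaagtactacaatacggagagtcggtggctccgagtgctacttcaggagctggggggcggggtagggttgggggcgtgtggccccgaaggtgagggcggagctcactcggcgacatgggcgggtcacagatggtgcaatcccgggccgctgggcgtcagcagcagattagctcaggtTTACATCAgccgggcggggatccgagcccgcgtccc
Gars: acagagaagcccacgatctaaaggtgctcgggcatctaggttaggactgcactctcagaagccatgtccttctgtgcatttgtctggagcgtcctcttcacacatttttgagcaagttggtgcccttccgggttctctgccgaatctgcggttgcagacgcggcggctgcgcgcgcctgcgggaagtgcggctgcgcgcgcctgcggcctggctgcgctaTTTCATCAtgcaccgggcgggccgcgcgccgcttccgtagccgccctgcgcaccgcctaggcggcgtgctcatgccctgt
Nupr1: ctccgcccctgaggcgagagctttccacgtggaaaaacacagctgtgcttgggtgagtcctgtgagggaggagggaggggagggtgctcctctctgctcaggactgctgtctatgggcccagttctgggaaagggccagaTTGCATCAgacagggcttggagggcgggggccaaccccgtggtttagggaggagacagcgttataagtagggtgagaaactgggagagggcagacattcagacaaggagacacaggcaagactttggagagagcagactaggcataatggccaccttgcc
Pycr1: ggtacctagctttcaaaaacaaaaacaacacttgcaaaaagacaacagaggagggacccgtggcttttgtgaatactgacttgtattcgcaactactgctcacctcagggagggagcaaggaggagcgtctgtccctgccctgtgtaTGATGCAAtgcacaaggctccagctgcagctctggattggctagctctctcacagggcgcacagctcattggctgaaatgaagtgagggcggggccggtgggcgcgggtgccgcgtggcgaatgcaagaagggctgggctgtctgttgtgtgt

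Beside this list, 3 genes that serve the endoplasmic reticulum were picked after their values had been seen. They are examples, and no share of such genes was counted. Eif2ak3, the kinase PERK that phosphorylates eIF2, had 858, 929.9 and 1010.4 normalized counts at day 3, against 569, 645, 615 and 594 in untreated libraries (0.62 ± 0.07, adjusted p = 5.45e-07). Herpud1, a protein of degradation at the endoplasmic reticulum, had 3917, 3620.3 and 4248 at day 3, against 2209, 2266, 2532 and 2772 in untreated libraries (0.69 ± 0.11, adjusted p = 8.48e-05). Ero1b, an oxidase of protein folding, had 553, 564 and 670.3 at day 3, against 265, 291, 215 and 255 in untreated libraries (1.22 ± 0.19, adjusted p = 5.01e-05). None of the 3 overlapped between the groups.

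Interferon response genes fell. Of 35 tested 9 fell and none rose, with a median of -0.62, and the groups did not overlap for 25 of the 35. Eif2ak2, the kinase PKR that senses double stranded RNA, had 474, 488 and 451 normalized counts at day 3, against 1008, 1020.4, 749 and 877 in untreated libraries (-0.94 ± 0.17, adjusted p = 0.000343). Irf7, the factor that amplifies interferon genes, had 394, 574 and 441 at day 3, against 1045, 964, 936 and 1190.0 in untreated libraries (-1.15 ± 0.33, adjusted p = 0.0154; up to 0.0797 without day 3 library 1 or 3). Dhx58, an RNA sensor, fell by 0.62 (adjusted p = 0.0127; 0.114 without day 3 library 3), and Isg20, an exonuclease, fell by 0.92 (adjusted p = 0.0162; 0.0691 without day 3 library 3). The number that fell was 2 without day 3 library 3, 4 without day 3 library 1 and 5 without untreated library 1; with the spread taken from the 7 libraries alone it was 16.

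Among 27 immediate early and heat shock genes 3 rose and 1 fell (median 0.09). Klf6, an early response factor, had 3250.0, 3445 and 3343 normalized counts at day 3, against 1451, 2400.3, 1876 and 1887 in untreated libraries (0.84 ± 0.16, adjusted p = 0.000578). Hspa8, the constitutive HSC70 chaperone, had 6695, 7162 and 8709.6 at day 3, against 5222, 4543, 3881 and 4298 in untreated libraries (0.74 ± 0.15, adjusted p = 0.000881). Fosb, an AP-1 subunit, had 244, 86.3 and 67.8 at day 3, against 97.1, 1014, 1426 and 1010.0 in untreated libraries (-2.44 ± 0.60, adjusted p = 0.00528). Its low value in untreated library 1 lies within the treated range, and set against that library alone Fosb was higher by 0.21 and did not pass the test. The count that rose was 5 without untreated library 3.

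**Figure D4:**
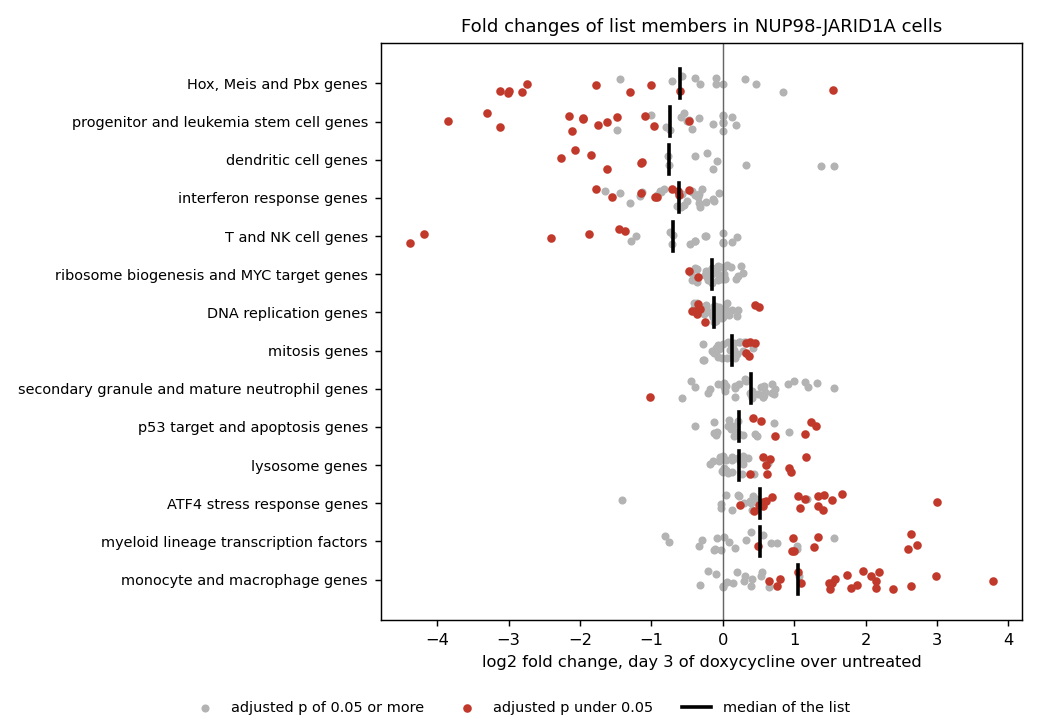
Log2 fold changes at day 3 over untreated for every tested member of 14 gene lists in NUP98-JARID1A cells; red points passed the test at an adjusted p under 0.05, grey points did not, and the black bar is the median of the list. Monocyte and macrophage genes (median 1.05) and progenitor genes (median -0.74) lie on opposite sides of 0, while mitosis, DNA replication and ribosome biogenesis genes lie close to it.

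Chromatin regulators of the kind that act with KDM5A or on Hox genes changed little: of 31 tested 1 rose and 5 fell, with a median of -0.08. Suz12, a core subunit of the H3K27 methylating complex PRC2, had 1355, 1585 and 1880.3 normalized counts at day 3, against 3691, 2986, 2153 and 2374 in untreated libraries (-0.78 ± 0.20, adjusted p = 0.00594; 0.0537 without day 3 library 1). Kdm6a, an H3K27 demethylase, had 746, 784 and 904 at day 3, against 1114, 1085, 1055 and 1056 in untreated libraries (-0.41 ± 0.09, adjusted p = 0.00256). Setd2, the H3K36 methyltransferase, changed by -0.39 ± 0.08 (adjusted p = 0.0017) and Kdm5b, a relative of Kdm5a, fell by 0.94 (adjusted p = 0.019). Ing1, an H3K4 reader, rose (0.42 ± 0.10, adjusted p = 0.00286). Without day 3 library 1 or 2 the number that fell was 3.

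Some markers of other cell types fell, although the genes that define those cells were at or near 0 in all 7 libraries. Of 21 T and NK cell genes 6 fell and none rose, with a median of -0.69, and the count was 3 without day 3 library 2 or 3. Gata3, the T cell factor, had 29.8, 17.6 and 22.3 normalized counts at day 3, against 571, 433, 642 and 375 in untreated libraries (-4.38 ± 0.31, adjusted p = 5.76e-10). Klrb1c, the surface receptor NK1.1, had 58.7, 29.7 and 50.4 at day 3, against 656, 811, 925 and 938 in untreated libraries (-4.18 ± 0.40, adjusted p = 4.86e-08). Cd28, a costimulatory receptor, had 235, 233 and 191 at day 3, against 1094, 1315, 973 and 1289 in untreated libraries (-2.40 ± 0.39, adjusted p = 7.79e-05). Yet Cd3e, the T cell receptor subunit, and Ncr1, the NK cell receptor, had 0 reads in every one of the 7 libraries, while the control libraries held 324 to 824 reads of Cd3e and 166 to 449 of Ncr1. The summed level of the list was 316 to 394 at day 3, 2461 to 2842 in untreated libraries and 5626 to 11588 in controls.

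Of 17 B cell genes 3 fell and none rose, with a median of -0.54. Il7r, the interleukin 7 receptor, had 10.2, 8.35 and 8.72 normalized counts at day 3, against 97.1, 106, 86.6 and 211 in untreated libraries (-3.55 ± 0.38, adjusted p = 2.64e-07). Rag2, a recombinase of lymphocyte receptors, had 0.850, 0 and 0.969 at day 3, against 73.8, 50.6, 30.3 and 83.2 in untreated libraries (-5.20 ± 0.58, adjusted p = 5.11e-07). Ms4a1, which encodes the B cell antigen CD20, had 0 or 1 read in the 7 libraries and 2602 to 8742 in the controls. The summed level of the B cell list was 1256 to 1518 at day 3, 1270 to 1900 in untreated libraries and 28940.3 to 126008 in controls.

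Genes of the mast cell, erythroid and megakaryocyte lists passed the test in small numbers. Of 16 mast cell, basophil and eosinophil genes 2 fell, led by Cpa3, a mast cell protease, with 51.0, 45.5 and 105 normalized counts at day 3, against 419.5, 357, 219 and 509 in untreated libraries (-2.51 ± 0.46, adjusted p = 0.000285); 1 fell without day 3 library 2 or untreated library 1. Of 14 erythroid genes 1 fell, the transferrin receptor Tfrc, lost in 4 of the 7 fits (without any of the 3 day 3 libraries or untreated library 1). None of 8 megakaryocyte genes passed the test; 1 was higher and 2 lower at an unadjusted p under 0.05, and edgeR called none. Of 8 endothelial and stromal genes 3 fell and 1 rose, a larger share than the 15.7% of all features past the test. Those that fell were Pdgfrb, Pecam1 (-1.10) and Eng (-0.80). The call of Eng was lost without day 3 library 2 or 3 or untreated library 3 or 4. The gene that rose was the VEGF receptor Flt1 (1.25).

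The same drug for 3 days in the other models allowed a test of where NUP98-JARID1A differed. The NUP98-DDX10 and NUP98-NSD1 models carry their own regulatable fusion and each has 3 day 3 and 4 untreated libraries, so the effects share no library. The effect differed between NUP98-JARID1A and NUP98-DDX10 for 3.57% of the features, 297 more positive (2.34%) and 156 more negative (1.23%) in NUP98-JARID1A. It differed between NUP98-JARID1A and NUP98-NSD1 for 5.31%, 372 more positive (2.93%) and 302 more negative (2.38%). Past the test at day 3 and in both differences were 180 features, and for 178 of them all 3 values had the same sign, 110 higher and 68 lower. Of the 178, 23 had a mean under 10 normalized counts in the other fusions. All of the 23 but Trib3 are among the 68 lower features, and such a level limits how far they could fall there. The count includes the NUP98-JARID1A construct itself.

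Foxf1, Nkx2-3 and Gata3 belong to those 23. Foxf1 averaged 262 normalized counts at day 3 and 2544 in untreated NUP98-JARID1A libraries, and Nkx2-3 232 and 1040.1. Over the 14 day 3 and untreated libraries of the other fusions Foxf1 averaged 0.123, Gata3 0.140 and Nkx2-3 0. Their falls were therefore measured in NUP98-JARID1A cells only. Whether such genes follow from the fusion or from the leukemia that was transplanted was not tested.

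Other genes were well expressed in all 3 models and still differed. Bbx, an HMG box factor, had 1214, 1123 and 1185 normalized counts at day 3, against 4126, 3674, 3678 and 3744 in untreated NUP98-JARID1A libraries (-1.70 ± 0.13), while its log2 change was 0.22 in NUP98-DDX10 and 0.14 in NUP98-NSD1. The difference was -1.91 ± 0.18 against NUP98-DDX10 (adjusted p = 1.6e-07) and -1.84 ± 0.18 against NUP98-NSD1 (adjusted p = 3.94e-07). L3mbtl3, an MBT domain chromatin protein, had 403, 405 and 478 at day 3, against 1273, 1364, 1293 and 1294 in untreated libraries (-1.61 ± 0.13), and changed by -0.39 in NUP98-DDX10 and -0.37 in NUP98-NSD1. Top3b, a topoisomerase, had 1549.8, 1400.4 and 1554 at day 3, against 3459, 2678, 3327 and 2854 in untreated libraries (-1.03 ± 0.08). Tsc22d2 had 959.8, 787 and 853 at day 3, against 1480.0, 1627, 1659 and 1907 in untreated libraries (-0.94 ± 0.09). All 4 fell without overlap in NUP98-JARID1A cells and passed both tests of the difference. The inhibitor Cdkn2c also passed both, with a change of -0.23 in NUP98-DDX10 and 0.43 in NUP98-NSD1.

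Rises that passed both tests included Sgms1, a sphingomyelin synthase, with 570.4, 584 and 637 normalized counts at day 3, against 258, 258, 281 and 289 in untreated libraries (1.13 ± 0.08, with 0.04 in NUP98-DDX10 and 0.59 in NUP98-NSD1). Apobec1, a cytidine deaminase, had 1296, 1405 and 1538 at day 3, against 753, 831, 783 and 942 in untreated libraries (0.77 ± 0.10); its change was -0.34 in NUP98-DDX10 and -0.43 in NUP98-NSD1. Itgb5, an integrin subunit, had 760.0, 694 and 609 at day 3, against 339, 423, 489 and 432 in untreated libraries (0.71 ± 0.15), with -0.67 in NUP98-DDX10 and -1.30 in NUP98-NSD1. Apobec1 and Itgb5 thus had opposite signs in NUP98-JARID1A and the other fusions. Entpd5, a nucleotidase of the endoplasmic reticulum, rose by 0.75 and differed by 0.74 from NUP98-DDX10 and by 1.09 from NUP98-NSD1. Arrb1, a beta-arrestin, and Cib1, a calcium binding protein, differed from NUP98-NSD1 only at the threshold (log2 differences of 1.31 ± 0.18 and -0.79 ± 0.10); against NUP98-DDX10 the adjusted p was 0.232 and 0.135.

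The log2 change of Klf4 was 2.59 in NUP98-JARID1A cells, 0.47 in NUP98-DDX10 cells and 0.49 in NUP98-NSD1 cells, and both differences passed (adjusted p = 0.0301 and 0.0252). Spp1 passed both (adjusted p = 0.0262 and 0.000487), as did Crip1, Ctsh, Tubb6 and S100a4. Levels differed between the models too. Over day 3 and untreated libraries, Klf4 averaged 630 normalized counts in NUP98-JARID1A and 1878 in the other fusions. The pairs were 969 and 5664 for Crip1, 2994 and 5146 for Ctsh and 459 and 1353 for S100a4. They were nearer for Spp1 (1013 and 1300) and Tubb6 (672 and 717). Whether these levels bear on the differences was not tested. The stress genes Mthfd2 (adjusted p = 0.000298 and 0.0419), Slc38a2 (0.000685 and 0.000364) and Trib3 (0.0414 and 0.0248) passed both as well. Trib3 averaged only 6.98 normalized counts in the other fusions, a low level at which fold changes are understated. Herpud1, Eif2ak3 and Ero1b, picked after their values had been seen, also passed both. By list, 6 of 37 monocyte and macrophage genes were more positive in NUP98-JARID1A against either fusion and none was more negative. Of 32 ATF4 genes 5 were more positive against NUP98-DDX10 and 3 against NUP98-NSD1, with none more negative. In their own day 3 comparisons NUP98-DDX10 had 1.1% of the features past the test (0.134% higher and 0.962% lower) and NUP98-NSD1 9.14% (4.55% higher and 4.59% lower). Of the monocyte and macrophage genes 1 rose with NUP98-DDX10 off and 6 with NUP98-NSD1 off, and of the ATF4 genes none rose in NUP98-DDX10 and 7 rose in NUP98-NSD1.

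Of 21 Hox, Meis and Pbx genes none differed at the threshold between NUP98-JARID1A and NUP98-DDX10, and 4 were more negative and 1 more positive in NUP98-JARID1A than in NUP98-NSD1, Hoxa2 (-2.75 ± 0.58) and Hoxa4 (-3.03 ± 0.60) among the more negative. For Cdk6 the log2 change of -0.86 ± 0.24 in NUP98-JARID1A stood beside -0.18 ± 0.24 for NUP98-DDX10 and -0.98 ± 0.24 for NUP98-NSD1; the difference did not pass against NUP98-DDX10 (-0.68 ± 0.33, adjusted p = 0.295) or NUP98-NSD1 (0.12 ± 0.33, adjusted p = 0.9). The fusion features themselves fell by unequal amounts, by 5.05 in NUP98-JARID1A against 11.06 in NUP98-DDX10 and 10.10 in NUP98-NSD1 on the log2 scale. These are changes of log2(value + 1) in different features, so their size also depends on the untreated level of each. They do not measure comparable degrees of loss. Each model has its own fusion feature, and whether these falls bear on the differences between the models was not tested.

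**Figure D5:**
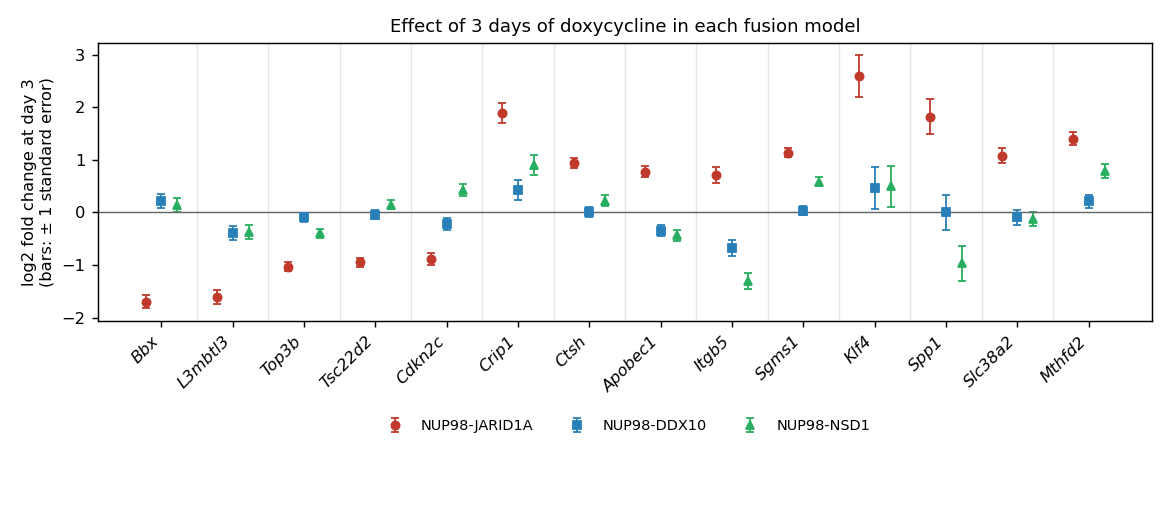
Log2 fold change (± 1 standard error from the fit) after 3 days of doxycycline over untreated for 14 genes in NUP98-JARID1A (red circles), NUP98-DDX10 (blue squares) and NUP98-NSD1 (green triangles). Bbx changed by -1.70 in NUP98-JARID1A and by 0.22 and 0.14 in the other 2, and Apobec1 and Itgb5 have opposite signs in NUP98-JARID1A.

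Day 5 showed which of these changes went on. Between day 5 and day 3 of NUP98-JARID1A libraries 19.9% of the features differed, 1210 higher (9.54%) and 1316 lower (10.4%) at day 5. This comparison shares its day 3 libraries with that of day 3 against untreated, and the values of both are given side by side. Of the 1028 features higher at day 3, 285 were higher still at day 5 and 85 were lower than at day 3. Of the 967 lower at day 3, 163 were lower still and 92 were higher than at day 3.

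Cdk6 had 4926, 4029 and 3229.5 normalized counts at day 5, against 10617, 7965 and 8946 at day 3 (log2 -1.19 ± 0.25, adjusted p = 0.0014). Its relative Cdk4 had 2991, 3342 and 2849 at day 5, against 6044, 5588 and 5696 at day 3 (-0.92 ± 0.08, adjusted p = 1.55e-08). Cdk4 had not passed the test at day 3 against untreated (-0.15 ± 0.07, adjusted p = 0.176; 0.0492 without untreated library 2). Myc had 1589.7, 1185 and 1276 at day 5, against 4355, 3923 and 4539 at day 3 (-1.67 ± 0.15, adjusted p = 2.62e-08). The metabolic genes Impdh2, of guanine nucleotide synthesis (-1.27), Srm, of spermidine synthesis (-1.37), and Fads2, a fatty acid desaturase (-3.49), were lower at day 5 too, as were the repair glycosylase Ung (-1.52) and Il12a (-2.53). Rnase4, a secreted ribonuclease, had 2576, 1735 and 2359 at day 5, against 590.0, 574 and 445 at day 3 (2.04 ± 0.15).

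Groups with few calls at day 3 had many genes lower at day 5. Between day 5 and day 3, 37 of 44 DNA replication genes, 32 of 38 ribosome biogenesis genes and 18 of 23 cholesterol synthesis genes were lower and none was higher. Of the 32 ATF4 genes 19 were lower at day 5 than at day 3 and none was higher. Mthfd2 had 671, 599 and 550.3 normalized counts at day 5, against 1104, 973 and 1741 at day 3, and Trib3 had 4.26 to 16.1 at day 5, against 34.9, 21.3 and 63.0 at day 3. Of the 35 interferon genes 11 were higher at day 5 than at day 3 and none was lower; Irf7 had 689, 1195 and 1634 at day 5, against 394, 574 and 441 at day 3. The monocyte genes went on in the same direction, with 28 of 37 higher at day 5 than at day 3 and none lower. S100a4 had 3361, 2166 and 1776 at day 5, against 628, 944 and 836 at day 3 (1.57 ± 0.33). Vcan had 3492, 1252 and 2523 at day 5, against 1074, 1385 and 839 at day 3, with overlap and without passing the test (1.05 ± 0.66, adjusted p = 0.28). Of 31 progenitor genes 13 were lower at day 5 than at day 3 and none was higher, and of the Hox, Meis and Pbx genes 7 were lower and 1 was higher. Hoxa9 had 176, 182 and 192 at day 5, against 774, 496 and 471 at day 3, without passing the test (-1.62 ± 0.61, adjusted p = 0.062).

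Against the untreated libraries, which the day 3 comparison shares, 41.3% of the features were past the test at day 5, 20.1% higher and 21.2% lower. Side by side with the counts at day 3, 32 of 37 monocyte and macrophage genes were higher at day 5, and 21 had been at day 3. Of the 40 secondary granule and mature neutrophil genes 22 were higher at day 5, and none had been at day 3. Of the 32 ATF4 genes 7 were higher and 9 lower at day 5, and 18 had been higher at day 3. Of the 44 DNA replication genes 40 were lower at day 5, and 6 had been lower at day 3.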

How the data were processed

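Total RNA from sorted bone marrow cells was made into stranded poly-A libraries, per the labels' protocols. The submitters' processing notes name FastQC, STAR, SAMtools, featureCounts and DESeq2 and the builds GRCm38 and mm10, with no version. The authors deposited 1 table of normalized counts (a signal scaled by size factor, not raw counts) for 24462 features, 24454 genes by Entrez identifier and 8 constructs, in 33 libraries. Every value came back as a whole number of reads (100% of values, tolerance 0.01), so depth is known from the recovered reads. Symbols matched 24376 of the genes.

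Values were taken as log2(value + 1), so a fold change understates the change of low genes. The 12687 features with at least 10 in at least 3 libraries were fitted with limma 3.58.1 (R 4.3.3) with 1 mean for each of the 10 groups (33 libraries) and a trended prior variance, and p-values were adjusted by Benjamini and Hochberg over all features; an adjusted p under 0.05 is past the test. Errors are standard errors of that fit. The script was tested on simulated data. Alternatives were edgeR 4.0.16 and DESeq2 1.42.0 on the recovered reads, other scalings, pseudocounts, filters and weights, a replicate block, fewer libraries in the fit, either kind of untreated library alone, and each library left out.

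Genes are named by rule: Cdk6, the fusion parts and the constructs; 15 rises and 15 falls of the largest size that passed the test without overlap of the groups, with a mean above the median; in each list the 4 members, or fewer, of smallest adjusted p; and the 8 smallest p in each difference between fusions and in day 5 against day 3. Other members are named as examples after their values were seen. Some genes that enter the counts are not reported here. The members and lists were chosen with earlier results of these data known. Mitochondrial DNA genes were not used here. Within the day 3 and within the untreated NUP98-JARID1A group, no 2 libraries held identical values and all replicates differed by more than counting noise. The other groups were not checked in this way.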

Additional observations from a re-analysis of the deposited data

Results flagged for a closer look

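Among the genes named by the rule or set against the other fusions in the report, those below changed by a different amount in NUP98-JARID1A cells than in another model, by the limma test of the difference between the 2 effects with Benjamini-Hochberg adjustment over all features. Each pair of values gives NUP98-JARID1A minus NUP98-DDX10 and then NUP98-JARID1A minus NUP98-NSD1. Genes with a more positive effect in NUP98-JARID1A against both are given in this group. The difference in log2 change was 1.12 and 1.20 for Apobec1, 1.46 and 0.98 for Crip1, 0.92 and 0.71 for Ctsh and 0.56 and 0.40 for Eif2ak3. It was 0.74 and 1.09 for Entpd5, 1.03 and 1.11 for Ero1b, 0.93 and 0.94 for Herpud1 and 1.38 and 2.01 for Itgb5. It was 2.12 and 2.10 for Klf4, 1.19 and 0.62 for Mthfd2, 1.66 and 1.54 for S100a4 and 1.10 and 0.55 for Sgms1. It was 1.17 and 1.21 for Slc38a2, 1.82 and 2.79 for Spp1, 2.15 and 2.26 for Trib3 and 1.70 and 1.34 for Tubb6. Trib3 averaged 6.98 normalized counts in the other 2 models, a low level at which fold changes are understated. Besides Trib3, all of this group but Eif2ak3 and Mthfd2 had a higher mean level in the other 2 models than in NUP98-JARID1A.

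Genes with a more negative effect against both make up the next group. The difference in log2 change was -1.91 and -1.84 for Bbx, -0.66 and -1.32 for Cdkn2c, -3.28 and -2.84 for Foxf1 and -4.13 and -4.15 for Gata3. It was -1.22 and -1.24 for L3mbtl3, -2.16 and -2.16 for Nkx2-3, -0.94 and -0.64 for Top3b and -0.90 and -1.09 for Tsc22d2. Foxf1, Gata3 and Nkx2-3 averaged under 1 normalized count in the other 2 models, so they could not fall there and their differences say no more than their falls in NUP98-JARID1A. Against NUP98-DDX10 alone the test was passed by Klrb1c (-3.28), Parvb (1.89), Pid1 (1.76), Ptms (2.32), S100a6 (1.70) and Tgfbi (1.10). Against NUP98-NSD1 alone it was passed by Arrb1 (1.31), Bcl11a (-1.53), Cib1 (-0.79), Hoxa2 (-2.75), Hoxa4 (-3.03), Tsc22d1 (-2.27) and Vcan (3.59). Klrb1c averaged 7.23 normalized counts in untreated NUP98-DDX10 libraries, which limits how far it could fall there. Passing in 1 comparison and missing in the other does not show that the other 2 fusions differ from each other.

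In 14 of 127 named genes past the test 1 of the 4 untreated libraries lay far from the other 3 (by Dixon's test at the 95% level); chance flags about 1 in 20 groups. Untreated library 1 was apart on the high side with 4126 for Bbx, 2069 for Cib1 and 1012 for Tfrc (normalized counts). Untreated library 1 was apart on the low side with 2009 for Arrb1, 99.1 for Nr4a1 and 3034 for Tgfbi (normalized counts). Untreated library 2 was apart on the high side with 7807 for Clec7a, 2156 for Gars and 200.5 for Pla2g7 (normalized counts). Untreated library 2 was apart on the low side with 638 for Hoxa5 (normalized counts). Untreated library 4 was apart on the high side with 134 for Blnk, 2269 for Cdca8, 211 for Il7r and 3585 for Satb1 (normalized counts). Blnk, a B cell adaptor (log2 change of -1.90 at day 3), Cdca8, of the mitotic passenger complex (0.32), and Nr4a1, an early response nuclear receptor (0.99), were named by the rule for their lists and passed the test. Untreated library 1 is the one titled for day 3, and why these libraries lay apart was not tested.

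A construct feature named for another fusion, NUP98-HOXA9, was outside the comparisons. It had 4.64 to 7.75 normalized counts in the day 3 libraries and 8.09 to 21.7 in the untreated NUP98-JARID1A libraries, while the 3 control libraries had 0 reads. Low values were also present in the NUP98-DDX10 and NUP98-NSD1 models. Where these reads come from was not tested.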

How the results depend on the processing

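At day 3 against untreated, array weights gave 2018 features higher and 2050 lower, and the untreated library titled for day 3 as the only comparison gave 526 lower. Without the 3 control libraries the fit gave 1495 higher and 1390 lower, against 1028 and 967 in the main fit. With the spread taken from the 7 libraries alone it gave 698 and 768. Leaving out 1 library gave 641 to 976 higher and 607 to 835 lower, lowest without day 3 library 1 (622 lower without day 3 library 2). Against NUP98-DDX10 it gave 161 to 349 more positive and 81 to 150 more negative, against NUP98-NSD1 216 to 375 and 179 to 274, and between day 5 and day 3 778 to 1464 higher and 943 to 1573 lower, with 778 without day 3 library 3. Quantile normalization gave 786 higher at day 5 against day 3. The cause of these shifts was not tested. Same-numbered libraries did not pair (correlations -0.38, -0.04, -0.01 and -0.16 of their deviations); the replicate block gave 807 higher and 717 lower at day 3, 162 and 77 against NUP98-DDX10, and 238 and 195 against NUP98-NSD1. edgeR gave 1073 higher and 916 lower, and DESeq2 1137 and 1124. Of 183 named features, 174 kept direction and side of the threshold with the block, 175 with edgeR and 139 with the untreated library titled for day 3 alone, under which Fosb turned to 0.21 (adjusted p = 0.869). Over 1281 values with 1 library left out 1180 kept both. Low counts limit Hoxa4 and Fendrr.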
